A study of Mus musculus with 22 samples.

Results

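Hearts in which αMHC::Cre had removed Ronin (gene symbol Thap11) were compared with their controls at E11.5, in mid-gestation. RNA of 2 control and 2 knockout heart samples, 4 of the 22 samples of the series, was hybridized to Illumina MouseWG-6 v2.0 arrays, which give the intensity of a probe for each transcript. The 2 controls carried MHC::Cre and 1 floxed Ronin allele (RoninloxP/+), and the 2 knockouts carried 2 floxed alleles (RoninloxP/loxP), all of strain C57BL/6. The genotype field of both knockout records names Nkx2.5::Cre, whereas their titles and source names give MHC-driven knockout, and the titles were followed. αMHC::Cre acts in heart muscle cells, so that other cells of the heart keep Ronin, and both groups carry Cre. Whether hearts were pooled, or came from 1 litter, is not given in the sources used here for E11.5. The p-values therefore measure only the spread between samples, which the model estimated over all 22 arrays of the series. The genes compared were autosomal, named by a probe with 1 gene symbol, and brighter than the median probe on these 4 arrays, which left 11499 of 18295 autosomal genes with a probe.

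Ronin is a zinc finger protein of the THAP family that binds promoters together with its cofactor Hcf-1. Its known targets include genes of the mitochondrial ribosome, the respiratory chain and other parts of primary metabolism. At this age the ventricle wall is forming its trabecular and compact layers, and primitive red cells circulate through the chambers.

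The 4 arrays were alike in scale, with a median intensity of 68.87 to 68.91, and the SD of the log2 difference was 0.197 between the controls, 0.218 between the knockouts and 0.195 to 0.230 between a control and a knockout. The arms differed in sex-linked transcripts. Xist, which is expressed from the inactive X chromosome, had an intensity of 1888 and 1989 in controls and 49.95 and 54.86 in knockouts, while Eif2s3y on the Y chromosome had 51.24 and 53.11 in controls against 1114 and 1053 in knockouts. Sex and genotype therefore cannot be told apart here, and only autosomal genes are described. The heart muscle markers were bright. Actc1, Myl7 and Nkx2-5 overlapped between the groups, and Myh6 (−0.16), Myh7 (−0.19) and Myl2 (0.20) did not, in log2 differences. Over all genes tested, knockouts lay above both controls in 14.8% and below both in 17.7%. Of the liver markers, Afp and Alb were no brighter than the median probe, and Ttr was at 188.2 and 203.9 in controls against 159.2 and 181.5 in knockouts.

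Thap11 itself, the deleted gene, had an intensity of 4702 and 5083 in controls and 2902 and 4315 in knockouts. Both knockout values lay below both controls, and knockout 2 lay close to them. The log2 fold change was −0.47 (SE 0.21, adjusted p = 0.98). It was −0.18 without knockout 1, −0.75 without knockout 2 and −0.05 with the Xist level as a covariate, and an exact two-sided permutation test gave p = 0.333, the smallest p that 2 against 2 allow. Hearts hold cells in which the Cre is not active, the controls lack 1 allele where it is, and whether the probe lies within the deleted part is not given in the sources used here. In bulk tissue, fewer cells of a type and less RNA per cell cannot be told apart, which holds for every gene below.

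Of the 11499 genes, 1 passed the test at an adjusted p of 0.05, which is 0.0087%. It was Usp29, an imprinted gene next to Peg3 that encodes a ubiquitin-specific peptidase. Both controls (196.8 and 200) were bright and both knockouts (87.86 and 81.45) dim, so that it fell 2.35-fold (log2 fold change −1.23, SE 0.15, adjusted p = 0.0014). In the other comparisons of the series its log2 fold change was 0.12 (Nkx2.5::Cre, E11.5), 0.24 (Nkx2.5::Cre, E9.5), −0.07 (αMHC::Cre, P0) and 0.03 (αMHC::Cre, 6 weeks), none of them past the test. The other 2 probes of Usp29 were dimmer than the median probe, with log2 differences of 0.04 and 0.05. With equal array weights the adjusted p of Usp29 was 0.78, and with the Xist level as a covariate it was 0.2.

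Without adjustment, p was under 0.05 for 269 genes above the controls (2.34%) and 299 below them (2.6%), and 145 genes (1.26%) had p under 0.01. Knockouts lay above both controls in 1699 genes (14.8%) and below both in 2031 (17.7%). The median log2 fold change over all genes was −0.007. Differences of size were few, since 48 genes were over 1.5-fold higher with groups that did not overlap (0.417%) and 13 were lower (0.113%), and past 2-fold there were 5 and 4. These counts moved when single arrays were left out, which also makes it easier for groups not to overlap. Without knockout 1, 164 genes were over 1.5-fold higher and 28 lower, without knockout 2 the counts were 32 and 34, without control 1 they were 76 and 29, and without control 2 they were 74 and 38.

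**Figure D1:**
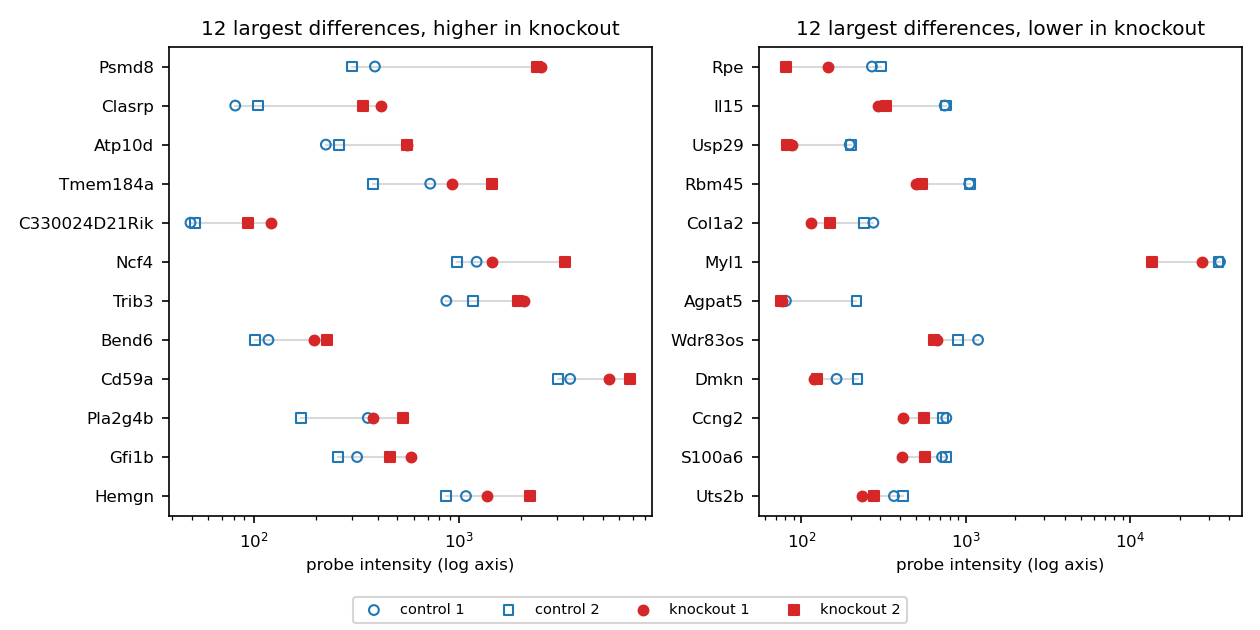
Probe intensity on each of the 4 arrays (log axis) for the 12 largest differences in each direction, one gene a line. Open symbols are the controls and filled symbols the knockouts. Psmd8 was at 388.3 and 300.7 in controls and 2503 and 2401 in knockouts, whereas both Rpe knockouts, at 146.0 and 81.05, lay below the controls.

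The 12 largest differences in each direction, among genes whose groups did not overlap, had log2 fold changes of 0.85 to 2.84 and −0.61 to −1.40. The largest was Psmd8, a subunit of the regulatory particle of the proteasome, with 388.3 and 300.7 in controls and 2503 and 2401 in knockouts (log2 fold change 2.84, SE 0.58, adjusted p = 0.086). Its other probe, dimmer than the median, differed by 0.05. Clasrp, which encodes an SR-like splicing protein, was at 81.15 and 104.4 in controls and 416.1 and 337.9 in knockouts (2.03, SE 0.40, adjusted p = 0.074). In both genes the knockouts were alike and well apart from the controls, without passing the test. Psmd8 also varied widely within groups of the other driver, with 202.4, 1747 and 845.4 in Nkx2.5::Cre controls at E11.5 and 964.7, 179.3 and 747.5 in knockouts.

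Atp10d, a lipid flippase, had intensities of 224.0 and 259.0 in controls and 559.3 and 554.6 in knockouts (1.21, SE 0.24, adjusted p = 0.074). C330024D21Rik was at 49.14 and 51.85, below the median probe, in controls and at 121.0 and 93.95 in knockouts (1.08, adjusted p = 0.063), so it was tested only because of the knockouts. Trib3, a pseudokinase induced by Atf4, was at 864.3 and 1167 in controls and 2060 and 1933 in knockouts (0.99, SE 0.36, adjusted p = 0.82), and its other 2 probes were higher too, by 0.84 and 0.64. Among the rest were Gfi1b, an erythroid and megakaryocyte repressor (317.9 and 256.1 against 581.5 and 458.0), Hemgn, a nuclear protein of blood progenitors (1077 and 859.7 against 1366 and 2210, its dimmer probe differing by −0.08), and Ncf4, a subunit of the phagocyte oxidase (1214 and 974.6 against 1437 and 3273). The others were Tmem184a, Bend6, Cd59a and Pla2g4b, with log2 fold changes of 0.87 to 1.14.

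Among the largest lower values, Rpe, an enzyme of the pentose phosphate pathway, was at 268.6 and 305.5 in controls and 146.0 and 81.05 in knockouts (−1.40, SE 0.25, adjusted p = 0.063). Il15, a cytokine, was at 743.6 and 758.5 in controls and 292.3 and 328.8 in knockouts (−1.28, SE 0.23, adjusted p = 0.063). Rbm45, which binds RNA, was at 1049 and 1061 in controls and 500.0 and 538.0 in knockouts (−1.02, adjusted p = 0.53). In all 3 genes both knockouts were clearly below the controls.

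Col1a2, a chain of type I collagen, was at 274.1 and 240.5 in controls and 115.1 and 150.1 in knockouts (−0.97, adjusted p = 0.23). Myl1, a myosin light chain, was at 35060 and 34330 in controls, 27200 in knockout 1 and 13600 in knockout 2 (−0.85, adjusted p = 0.51), and its second bright probe followed the same order with 9703, 9625, 7108 and 3053. Its level thus differed more between the 2 knockouts than between knockout 1 and the controls. The rest were Agpat5, Wdr83os, Dmkn, Ccng2, S100a6 and Uts2b, with −0.61 to −0.81 and none past the test. Of the 24 genes, 8 had another probe brighter than the median, and 11 of 13 such probes lay on the same side of 0.

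When every probe was tested on its own, a choice made after the data had been seen, 13 of 18386 autosomal probes passed (0.0707%), 2 higher and 11 lower. Of these, 8 belonged to 6 genes of chromosome 8, which holds 5.46% of the tested probes and also Thap11. All 8 fell. The share of probes past the test was 0.798% on chromosome 8 and 0.0288% elsewhere. In order along the chromosome the genes were Il15, Zfp330, Scoc, Prdx2, Man2b1 and Mylk3, which span 55 genes with a tested probe out of 625 on the chromosome, and 100 tested genes lie between Mylk3 and Thap11.

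The steepest was a probe of Zfp330, a zinc finger gene, with 1765 and 1721 in controls and 56.27 and 57.66 in knockouts (log2 fold change −4.94, SE 0.44, adjusted p = 6.6e-06). The knockouts of this probe, of the Mylk3 probe and of the dimmer Prdx2 probe were below the median probe, so the size of these 3 differences is not well measured. The second probe of Zfp330 read 1345 and 1380 in controls and 1315 and 1228 in knockouts (−0.10, SE 0.11), so that probes of 1 gene gave different results.

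The same held for others of the group. A probe of Man2b1, a lysosomal mannosidase, read 1699 and 1638 in controls and 301.0 and 300.0 in knockouts (−2.47, SE 0.32, adjusted p = 0.0012), while its brighter probe read 2304, 2531, 2315 and 2401 in the same order (−0.03, SE 0.12). For Prdx2, a peroxiredoxin abundant in red cells, 2 probes fell (−2.33 and −1.20), and the brightest read 26470 and 27660 in controls and 26390 and 32980 in knockouts (0.12, SE 0.12). A probe of Mylk3, the kinase of cardiac myosin light chain, read 181.6 and 219.8 in controls and 52.81 and 57.24 in knockouts (−1.86, SE 0.32, adjusted p = 0.022), against 1086 and 1128 in controls and 1104 and 974.3 in knockouts for its brightest probe (−0.09, SE 0.14). Scoc gave −1.57 on 1 probe and −0.18 (SE 0.15) on a brighter one. Only Il15 was lower on each of its 3 tested probes, by −1.28, −1.22 and −0.71, the first 2 past the test.

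The 8 probes were also lower in Nkx2.5::Cre knockouts at E11.5, which were compared with controls of their own. Their log2 fold changes there were −1.14 to −4.15, and 6 of the 8 passed the test, against 0.424% of all probes. In Nkx2.5::Cre hearts at E9.5, 5 passed, and at P0 and 6 weeks of the αMHC::Cre series 0 did by limma. The Zfp330 probe, for example, had −4.15 (SE 0.58) at E11.5 and −2.90 (SE 0.45) at E9.5 with Nkx2.5::Cre, and −0.91 (SE 0.62) at P0 and −1.67 (SE 0.82) at 6 weeks with αMHC::Cre. Some chromosome 8 probes outside this stretch also fell with αMHC::Cre and Nkx2.5::Cre at E11.5, without passing the αMHC::Cre test. A Mak16 probe had −1.68 and −1.45, while its other probes had −0.03 and −0.04 with αMHC::Cre. The Arv1 probes, beyond Thap11, had −1.47 and −0.91, and −0.85 and −0.84. Klf1 rose with both (0.85 and 1.27). What sets the lowered probes apart from the other probes of the same genes was not tested.

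**Figure D2:**
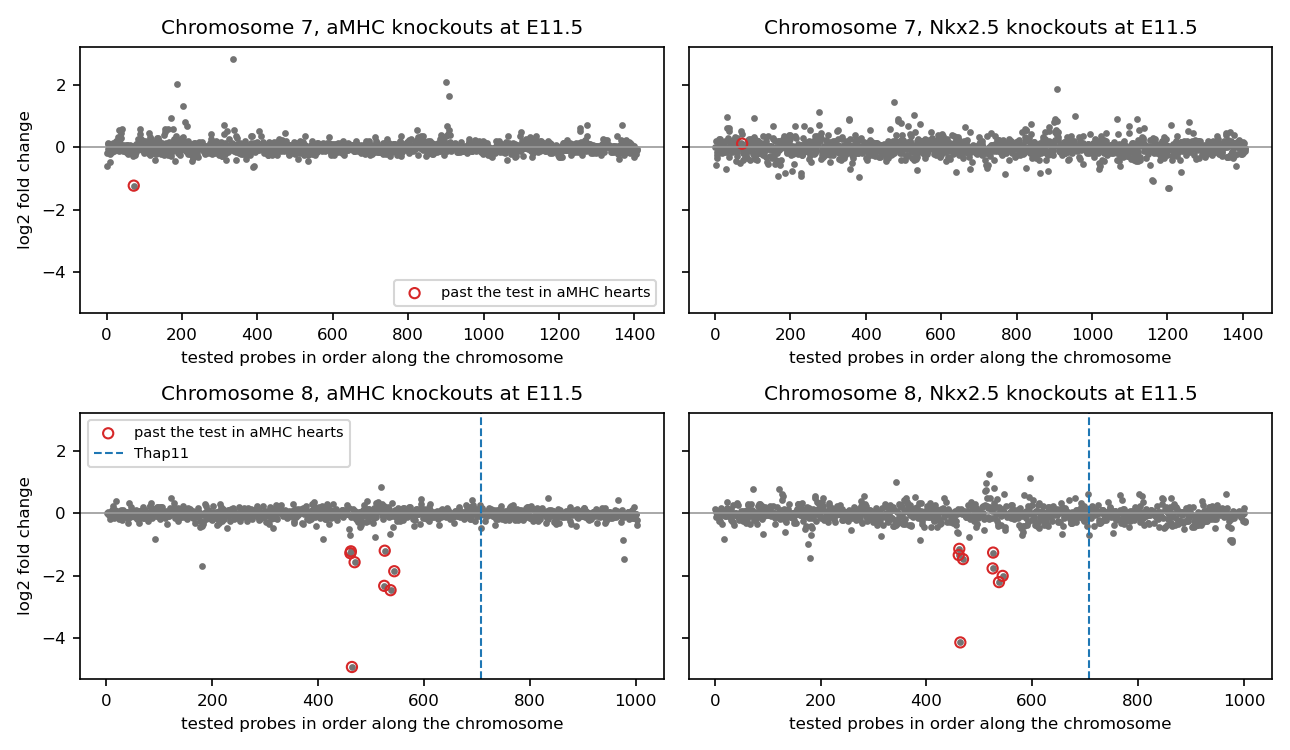
Log2 fold change of every tested probe (y axis) in order along chromosomes 7 and 8 (x axis), in αMHC::Cre (left) and Nkx2.5::Cre (right) knockouts at E11.5. Circles mark probes past the test in αMHC::Cre hearts, and the dashed line is Thap11. The 8 circled probes of chromosome 8 lie in 1 stretch and are below 0 in both panels. Some probes outside that stretch, such as those of Arv1, also fall in both panels but are not past the test.

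The other 5 probes past the test were those of Usp29, Rpe and Mamdc2, which were lower, and of Usp37 and Trib3, which were higher. For Usp37, a deubiquitinating enzyme, the probe read 100.5 and 72.98 in controls and 156.2 and 172.6 in knockouts (0.94, SE 0.14, adjusted p = 0.0076), and its brighter probe gave 0.41 (SE 0.24). The Trib3 probe read 84.38 and 92.18 in controls and 155.2 and 160.7 in knockouts (0.84, SE 0.14, adjusted p = 0.022), and it was also past the test in Nkx2.5::Cre knockouts at E11.5 (1.15, SE 0.19, adjusted p = 0.0054). With 1 probe per gene, stretches of 50 neighbouring tested genes held a median of 0 genes with p under 0.01, and the highest number in the 220 stretches was 6. It was reached on chromosome 8 from Tbc1d9 to Vps35 and on chromosome 7 from Mill1 to Zfp61. On chromosome 8, Wdr83os (−0.66), Vps35 (−0.43), Ier2 (−0.32) and 1700067K01Rik (−0.29) were lower, and Gadd45gip1 (0.38) and Cks1brt (0.34) were higher. None of these is a gene with a probe past the test. On chromosome 7, Clasrp, Ercc2, Sympk, Fbxo46 and Zfp93 were higher and Ercc1 was lower. The corresponding chromosome 7 values in Nkx2.5::Cre hearts were −0.83, −0.03, 0.29, −0.39, −0.54 and −0.01. Over the first 400 tested genes of chromosome 7, 22 had p under 0.01, against 1 of the other 532, a division made after the data had been seen. For the same 2 parts the counts with Nkx2.5::Cre were 14 and 20 at E11.5 and 19 and 10 at E9.5. With αMHC::Cre they were 3 and 2 at P0 and 21 and 27 at 6 weeks.

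**Figure D3:**
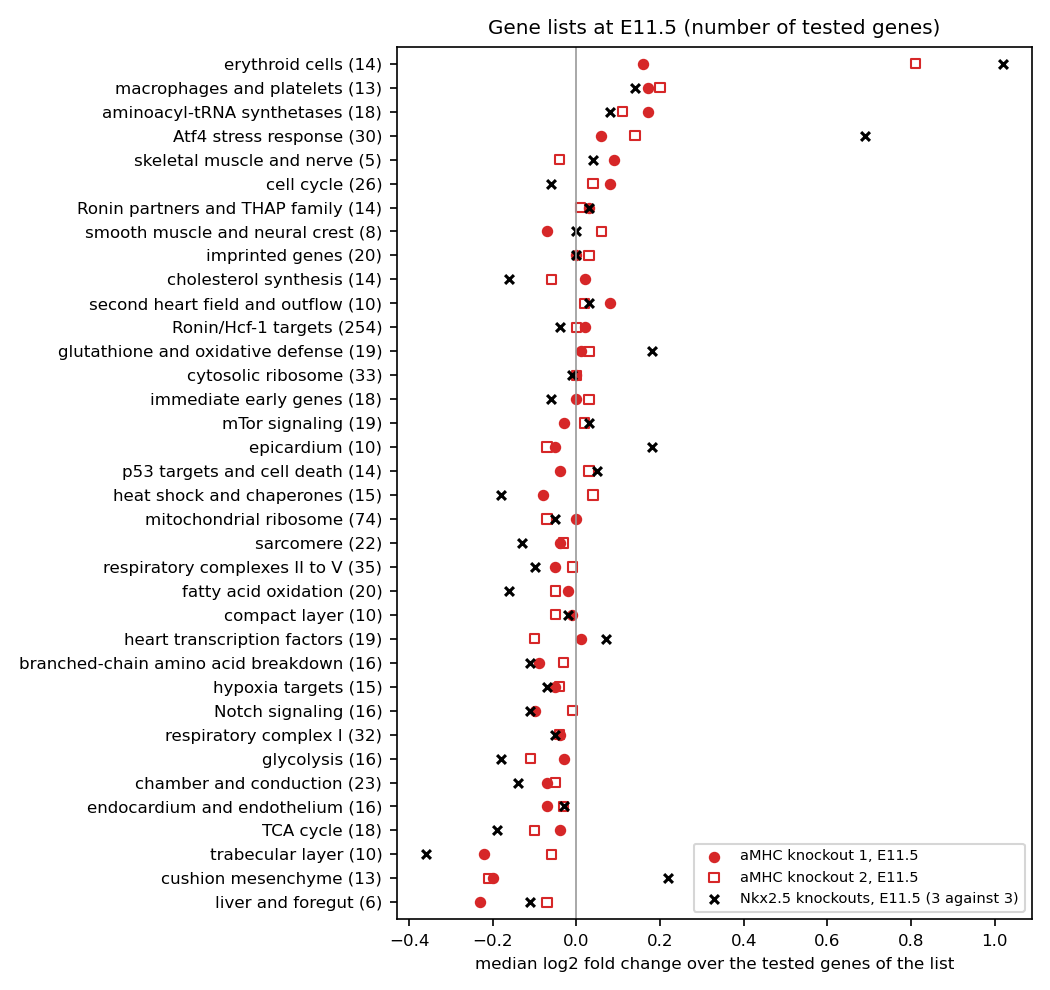
Median log2 fold change over the tested genes of each list (x axis), for each αMHC::Cre knockout against the mean of the 2 controls and for the 3 Nkx2.5::Cre knockouts at E11.5. Erythroid genes reach 0.16 in knockout 1 and 0.81 in knockout 2, and most lists lie close to 0.

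The Ronin/Hcf-1 targets, as the study bound them in E11.5 hearts, lay evenly about 0. Of 341 targets 254 were tested, of which 127 were higher and 127 lower, with a median of 0.00, and an unadjusted p under 0.05 was found for 9 on the upper and 7 on the lower side (all genes, 2.34% and 2.6%). None of them passed the adjusted test. In Nkx2.5::Cre hearts at E11.5, where 52 of the same 11499 genes passed (0.452%), 9 of the 254 targets passed below the controls and 1 above. The targets with the lowest p were Zfp93 (59.76 and 58.50 in controls, below the median probe, against 99.45 and 109.3 in knockouts), Taco1, which activates cytochrome oxidase translation (−0.37), and Klhl28 (0.35), whose controls (65.67 and 64.10) were also below the median probe. The targets the study followed at the chromatin level had log2 fold changes of −0.17 for Apba3, −0.18 for Mrpl34, −0.02 for Ctf1 and −0.09 for Smarcal1, against SEs of 0.13 to 0.16. Mrpl34 read 4321 and 3818 in the controls against 3594 and 3589 in the knockouts. In Mrpl34, Apba3 and Smarcal1 both knockouts lay below both controls, as they did in 17.7% of all genes, and in Ctf1 the groups overlapped. Mrpl34 was past the test in Nkx2.5::Cre hearts (−0.84, adjusted p = 0.038).

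Genes whose promoter holds the Ronin binding motif were also counted. The motif, searched on both strands, was found in 746 of 32851 RefSeq promoters (2.27%), each of 300 bases, and in 149 of the 271 targets with a promoter (55.0%). Of 494 tested genes with the motif, 237 were higher and 257 lower in αMHC::Cre knockouts, with a median of −0.008, and 0 passed the test by limma. The unadjusted p was under 0.05 for 15 on the upper side (3.04%) and 25 on the lower (5.06%), against 2.4% and 2.28% of the 8788 tested genes whose promoter lacks the motif, a difference that was not tested. In Nkx2.5::Cre knockouts at E11.5, 19 of the 494 passed the test below the controls and 2 above them. Of the 8788 without the motif, 17 passed below and 10 above.

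The mitochondrial ribosome, which translates the proteins encoded by mitochondrial DNA, had 26 genes higher and 48 lower of 74 tested, with a median of −0.03. Mrps12 was the furthest, at 1972 and 1853 in controls and 3122 and 3152 in knockouts (0.71, SE 0.18, adjusted p = 0.22). Mrpl37 had 3874 and 3885 in controls and 3213 and 2953 in knockouts (−0.33), and Mrpl53 had −0.22. In respiratory complex I, the entry point of electrons from NADH, 22 of 32 genes were lower with a median of −0.05. Ndufa13 stood at 24260 and 26650 in controls and 22560 and 22420 in knockouts (−0.18), and Ndufa5 and Ndufab1 at −0.21 and −0.13. In complexes II to V 25 of 35 genes were lower with a median of −0.03, Cox6c having 0.20 and Cox6b1 −0.15. None of these genes passed the test, and the medians of these 3 lists lay within 0.1 of the median of all genes.

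Genes of the Atf4 stress response, which cells induce when mitochondrial function or amino acid supply fails, had no member past the test with 1 probe per gene, though a second probe of Trib3 passed on its own. Of 30 tested, 20 were higher and 10 lower, with a median of 0.10, and the unadjusted p was under 0.05 for 4 of the former and 1 of the latter (all genes, 2.34% and 2.6%). The median was 0.06 without knockout 2. Atf5, a transcription factor of this response, had 597.0 and 654.8 in controls and 874.8 and 847.5 in knockouts (0.46, SE 0.15, adjusted p = 0.66). Asns, asparagine synthetase, had 3631 and 3521 in controls and 5230 and 5024 in knockouts (0.52, SE 0.20, adjusted p = 0.85). With Trib3, these 3 genes had knockouts above both controls and close to each other, a pattern that their choice by lowest p favors. Both knockouts lay above both controls in 10 of the 30 genes (all genes, 14.8%) and below both in 1 (all genes, 17.7%). In Nkx2.5::Cre hearts at E11.5 the same 30 genes had a median of 0.69. Of them 5 passed the test above the controls, as did 12 of all 11499 genes. Of 18 aminoacyl-tRNA synthetases 15 were higher, with a median of 0.12, among them Farsa (0.31), Sars (0.23) and Yars (0.19). The Yars controls (59.94 and 75.62) were on average below the median probe, so it was tested only because of the knockouts (76.94 and 76.39).

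Red cell genes were higher in both knockouts, and far more so in knockout 2. Of 14 tested, 14 lay above 0 and in 11 the groups did not overlap (background 14.8%), with a median of 0.50, none past the adjusted test and 3 at an unadjusted p of 0.05. Klf1, the erythroid Krüppel-like factor, had 1040 and 946.9 in controls, 1457 in knockout 1 and 2188 in knockout 2 (0.85, SE 0.35, adjusted p = 0.91). Epor, the erythropoietin receptor, had 347.7 and 351.0 in controls, 446.2 in knockout 1 and 660.2 in knockout 2. Rhag, of the red cell membrane, followed with 249.1 and 281.5, then 315.9 and 499.3. Car2, a carbonic anhydrase, had 1488 and 1265 in controls and 1697 and 2964 in knockouts.

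The embryonic globins, near the top of the array's range, differed less. Their log2 fold changes were 0.17 for Hba-x and for Hbb-bh1 and 0.02 for Hbb-y, whose groups overlapped. The median of the list was 0.16 in knockout 1 and 0.81 in knockout 2, and it is 0.81 without knockout 1 and 0.16 without knockout 2. In Nkx2.5::Cre hearts at E11.5 it was 1.02, with 0 of 14 genes past the test by limma. The intensities of the 14 genes summed to 218900 and 216900 in controls against 237100 and 267400 in knockouts. How far the amount of blood in a sample, or sex, moves these genes was not tested.

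**Figure D4:**
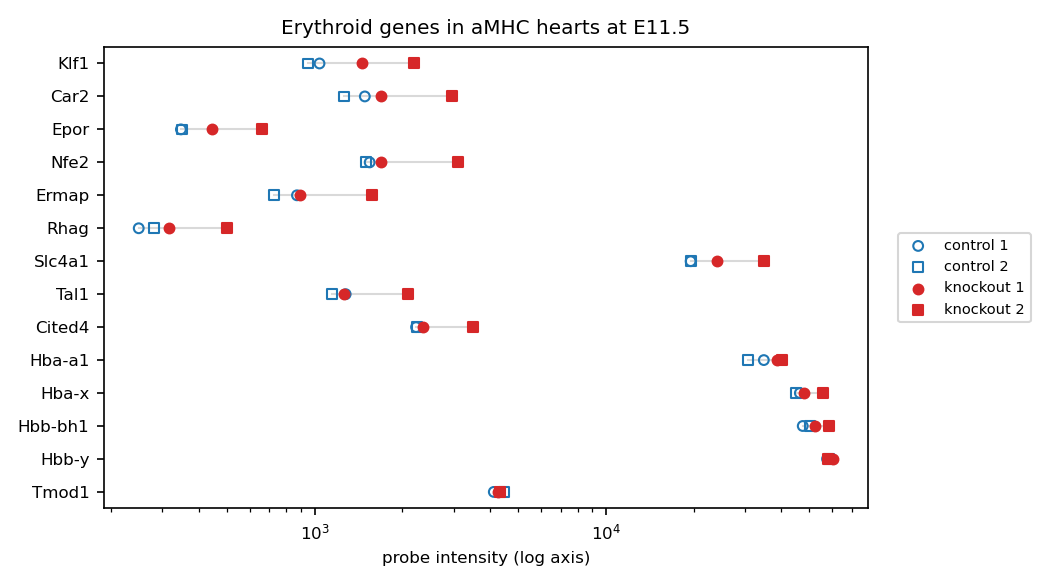
Probe intensity on each array (log axis) of the 14 tested red cell genes, one a line. Open symbols are controls and filled symbols knockouts. In 11 genes both knockouts lie above both controls, and knockout 2 (squares) is the further in most, as in Klf1 with 1457 in knockout 1 and 2188 in knockout 2.

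Genes of the heart's own cells had medians near 0. Of 22 sarcomere genes 9 were higher and 13 lower, with a median of −0.03. Myl2, the ventricular regulatory light chain, had 42890 and 45350 in controls and 50630 and 51020 in knockouts (0.20, SE 0.10), Myh6 had 20320 and 21390 in controls and 17830 and 19640 in knockouts (−0.16), and Tnni1 had 0.21. In the trabecular layer 8 of 10 genes were lower, with a median of −0.14, which was −0.06 without knockout 1, −0.22 without knockout 2 and −0.09 without control 2. Irx3, a factor of the conduction system, had 1916 and 1863 in controls and 1427 and 1411 in knockouts (−0.41, SE 0.16, adjusted p = 0.84, and 0.08 with the Xist level as a covariate). The gap junction gene Gja5 had −0.26. Another, Gja1, had −0.21 and belongs to the chamber and conduction list rather than to this one. Of 10 compact layer genes 8 were lower, with a median of −0.04.

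In the cushion mesenchyme, from which the valves form, 12 of 13 genes were lower, with a median of −0.17 (−0.20 in knockout 1 and −0.21 in knockout 2). Dcn, a matrix proteoglycan, had 6214 and 5896 in controls and 4558 and 4805 in knockouts (−0.37, SE 0.20), and Twist1 had 779.5 and 755.7 in controls and 678.7 and 660.2 in knockouts (−0.20). In 4 of the 13 genes both knockouts lay below both controls (all genes, 17.7%), and none passed the test. Averaging all probes of each gene gave a median of −0.10, and with the Xist level as a covariate Dcn had 0.08. In Nkx2.5::Cre hearts the median was 0.22. Of 16 endocardial and endothelial genes 12 were lower, with a median of −0.08, Flt1 having −0.26, Tek −0.25 and Emcn −0.16. The second heart field and outflow genes Rgs5 (0.53), Tbx1 (0.40) and Isl1 (0.31) had an unadjusted p under 0.05 on the upper side, which 2.34% of all genes had, and the median over the 10 tested was 0.01. The Tbx1 controls (56.44 and 73.88) were on average below the median probe, so it was tested only because of the knockouts. Isl1 was at 741.8 and 750.9 in controls and 897.3 and 951.8 in knockouts.

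The 2 drivers were then compared at E11.5, where Nkx2.5::Cre, active in cardiac progenitors, had 3 controls and 3 knockouts. The paper describes αMHC::Cre as acting later than Nkx2.5::Cre, so the time since Ronin was removed differs between the drivers too. How far this moves the difference was not tested. The difference of the 2 log2 fold changes passed the test in 8 genes (0.0696%), 4 of them above 0 and 4 below, and 480 genes (4.17%) had an unadjusted p under 0.05. The arrays of the 2 drivers had different median intensities, so levels are compared only within a driver. In this comparison too, sex goes with genotype in the αMHC::Cre arms.

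In 3 of the 8 genes, Uqcr10, Coa3 and Thyn1, knockouts of both drivers lay below their controls, and the promoter held the Ronin binding motif. The motif was found in 3 of the 7 genes that have a promoter in the RefSeq table, and in 494 of 9282 tested genes with a promoter (5.32%). Their promoters are shown in full, as these are the genes whose fall with Nkx2.5::Cre and smaller difference with αMHC::Cre the test set apart. Each runs 5′ to 3′ along the gene's strand, from 250 bases before the gene start to 50 after it (build GRCm38.p6), in lower case with the motif, on either strand, in capitals.
Uqcr10, chr11:4704295-4704594, minus strand: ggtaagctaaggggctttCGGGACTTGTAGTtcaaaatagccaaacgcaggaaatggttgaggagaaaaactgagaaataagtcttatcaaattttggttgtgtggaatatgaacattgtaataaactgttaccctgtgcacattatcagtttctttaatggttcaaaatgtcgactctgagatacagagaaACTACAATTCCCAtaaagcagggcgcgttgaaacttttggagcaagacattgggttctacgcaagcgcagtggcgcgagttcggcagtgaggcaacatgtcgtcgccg
Coa3, chr11:101278899-101279198, minus strand: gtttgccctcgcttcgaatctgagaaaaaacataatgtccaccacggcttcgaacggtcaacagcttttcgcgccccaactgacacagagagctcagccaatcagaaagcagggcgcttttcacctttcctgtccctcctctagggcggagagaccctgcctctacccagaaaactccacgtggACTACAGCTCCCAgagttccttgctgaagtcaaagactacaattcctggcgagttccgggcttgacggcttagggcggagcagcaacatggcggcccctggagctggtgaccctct
Thyn1, chr9:26999427-26999726, plus strand: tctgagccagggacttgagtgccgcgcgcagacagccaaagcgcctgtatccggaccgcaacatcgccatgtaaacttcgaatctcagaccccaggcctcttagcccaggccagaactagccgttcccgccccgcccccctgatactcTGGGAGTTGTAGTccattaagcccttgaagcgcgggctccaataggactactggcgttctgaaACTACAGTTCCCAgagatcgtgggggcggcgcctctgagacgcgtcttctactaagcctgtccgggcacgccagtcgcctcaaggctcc
A match is a description of the letters and does not show binding.

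Uqcr10, a subunit of respiratory complex III, had 34480 and 35140 in αMHC::Cre controls and 28310 and 30360 in knockouts (−0.25, SE 0.09, adjusted p = 0.76). In Nkx2.5::Cre hearts it had 21970, 20710 and 22680 in controls and 8585, 9797 and 7908 in knockouts (−1.32, SE 0.12, adjusted p = 1e-05). In neither driver did the groups overlap, and the difference between the drivers was 1.07 (SE 0.15, adjusted p = 0.0053).

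Coa3, an assembly factor of cytochrome oxidase, had 8315 and 8302 in controls and 6951 and 7129 in knockouts with αMHC::Cre (−0.24, SE 0.08), and 4941, 4729 and 4807 against 2124, 2530 and 2048 with Nkx2.5::Cre (−1.12, SE 0.11). The difference was 0.88 (SE 0.14, adjusted p = 0.016). Thyn1, a nuclear protein, had 5393 and 5218 in controls and 4459 and 4586 in knockouts (−0.23, SE 0.11), and −1.30 (SE 0.16) with Nkx2.5::Cre, a difference of 1.07 (adjusted p = 0.041). At 6 weeks after αMHC::Cre the 3 genes had log2 fold changes of −1.24, −1.47 and −2.12, each past the test.

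**Figure D5:**
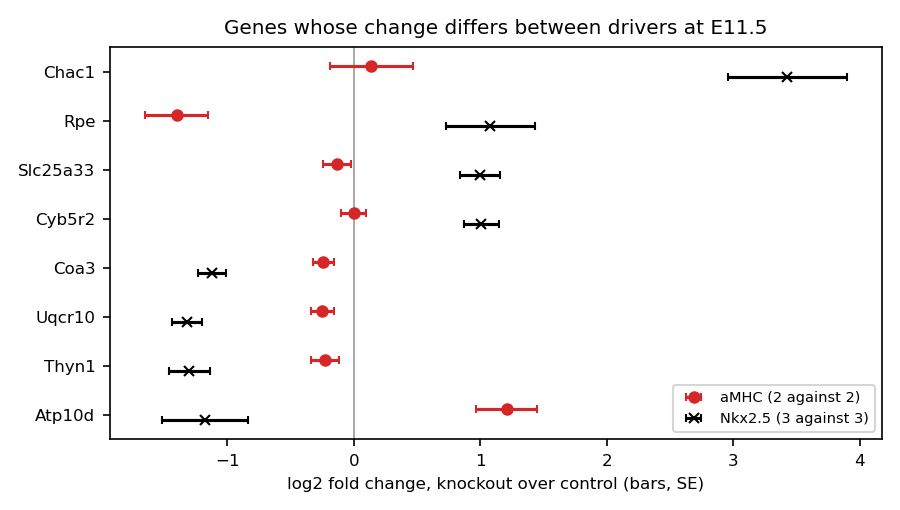
Log2 fold change (x axis, bars are SE) of the 8 genes whose change differed between drivers at E11.5, in αMHC::Cre (circles, 2 against 2) and Nkx2.5::Cre (crosses, 3 against 3) hearts. Uqcr10, Coa3 and Thyn1 lie below 0 in both, at −0.25, −0.24 and −0.23 against −1.32, −1.12 and −1.30.

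In the other genes αMHC::Cre knockouts were at control level or went the other way. Chac1, an enzyme that degrades glutathione and a target of Atf4, had 162.8 and 202.0 in controls and 250.4 and 159.6 in knockouts (0.14, SE 0.33), against a log2 fold change of 3.43 (SE 0.47) with Nkx2.5::Cre, a difference of −3.29 (adjusted p = 0.026). Slc25a33, a mitochondrial nucleotide carrier, had −0.13 against 1.00, and Cyb5r2, a cytochrome b5 reductase, 0.00 against 1.01. Atp10d had 1.21 against −1.18, and Rpe −1.40 against 1.08, with no overlap between the αMHC::Cre groups in either. Atp10d was at 152.6, 469.6 and 415.5 in Nkx2.5::Cre controls, so the spread there was wide. The count of 8 was 0 with equal array weights and 3 with only the arrays compared. It also rested on single arrays, since it was 2 without control 1, 2 without control 2 and 1 without knockout 2.

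The change at E11.5 was also set against that at P0 with the same driver, 2 controls against 2 knockouts at each age. In no gene did the 2 differ past the test by limma (0%), and 391 (3.4%) had an unadjusted p under 0.05. Uqcr10 and Thyn1 had −0.19 and −0.13 at P0, close to E11.5, and Coa3 had −0.50.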

How the data were processed

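RNA was prepared by the authors with the RNeasy kit and hybridized to MouseWG-6 v2.0 arrays. The deposited intensity values are linear and already normalized, by cubic spline with GenePattern modules or, for some analyses, by quantiles per the methods; arrays of 1 comparison share a median, which differs from one comparison to another. A table of raw values was not used, since its 22 columns match no sample label. Values were taken to log2. Among the probes of a gene, the one brightest on average across all 22 arrays stood for it. A gene was tested where that probe exceeded the median of all probes on the 4 arrays, with symbols and gene order from RefSeq (GRCm38.p6). Fold changes came from 1 limma model (R 4.3.3, limma 3.58.1, statmod 1.5.0) of all 22 arrays with 10 group means, 12 residual degrees of freedom, array weights per comparison (2.011 here) and a trend on intensity. Benjamini-Hochberg adjustment ran over all 11908 tested genes, X and Y included, and over all tested probes where each probe was tested. The difference between drivers or ages was a contrast of the same model. The test of αMHC::Cre knockouts against controls at E11.5 was tried on simulated data. The Ronin/Hcf-1 targets are the study's, and the other lists came from general knowledge. The comparison, the lists and the genes were chosen with earlier results of these data known. The text names Thap11, genes past the test, the 3 lowest p of a list and 4 targets the study followed. It also names the 12 largest differences in each direction among genes whose groups do not overlap. Wnt2, Fgfr1op2, Tm7sf3, Car2, Hba-x, Hbb-bh1, Hbb-y, Il15, Zfp330 and the other genes of the probe and position results were chosen after their values were seen. The number of arrays limits the precision, with a median within-group SD of 0.099 on the log2 scale. Alternatives were other array weights, filters, probe choices, scalings and sets of arrays, the Xist level as a covariate, the replicate number as a block, the methods' t-test, and each array left out.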

Additional observations from a re-analysis of the deposited data

Results flagged for a closer look

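At E11.5, 8 genes changed differently in αMHC::Cre and Nkx2.5::Cre hearts by the test of the difference itself, given here as αMHC::Cre minus Nkx2.5::Cre on the log2 scale. With equal array weights 0 genes differed by limma, and with only the arrays compared 3 did. The value was above 0 for Atp10d (2.39), Uqcr10 (1.07), Thyn1 (1.07) and Coa3 (0.88). It was below 0 for Chac1 (−3.29), Rpe (−2.48), Slc25a33 (−1.13) and Cyb5r2 (−1.01).

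Outside the autosomal comparison, 3 sex-linked transcripts differed between the arms, Xist by −5.21, Eif2s3y by 4.38 and Kdm5d by 2.05 on the log2 scale. Eif2s3y and Kdm5d lie on the Y chromosome, and in controls both were below the median probe.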

How the results depend on the processing

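The count of 1 gene past the test (0 higher, 1 lower) was the same with median or quantile scaling, without the filter on dim probes and with the probe brightest on the 4 arrays. It was 12 (9 higher, 3 lower) with the 4 arrays fitted alone, 3 (1 higher, 2 lower) with the E11.5 arrays of both drivers, 3 (2 higher, 1 lower) with a filter at the 75th percentile, where Usp29 was not tested, 9 (1 higher, 8 lower) with the mean of a gene's probes, and 13 (2 higher, 11 lower) with each probe tested on its own, which was chosen after seeing the data. It was 0 with equal array weights and 0 with the Xist level as a covariate. The methods' t-test called 528 genes (238 higher, 290 lower) unadjusted and 0 after Benjamini-Hochberg. With 1 array left out the count was 2 to 6 (1 to 3 higher, 1 to 3 lower), with Usp29 in each. Whether same-numbered samples belong together is not given in the sources used here. Their deviations correlated at 0.024, which with 2 arrays per group cannot settle it. With the replicate block 10 genes passed (8 higher, 2 lower), 17 differed between drivers and 2 between ages. The cause of these shifts was not tested.

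Genes over 1.5-fold with 1 array left out were 32 to 164 higher and 28 to 38 lower, and over 2-fold 7 to 32 higher and 5 to 14 lower. With the 75th percentile filter 7 were over 1.5-fold lower, and 3 higher and 2 lower were over 2-fold, while with the mean of probes 8 were over 2-fold lower. Genes that differed between drivers were 0 with equal weights, 3 with only the arrays compared and 1 to 8 with 1 array left out. Between ages there were 2 with only the arrays compared and 0 to 1 with 1 array left out. List medians with 1 array left out were 0.06 to 0.14 (Atf4), 0.16 to 0.81 (erythroid), −0.07 to 0.00 (mitochondrial ribosome), −0.05 to −0.02 (complex I), −0.07 to 0.00 (complexes II to V) and 0.00 to 0.02 (Ronin/Hcf-1 targets). With the mean of probes the cushion mesenchyme median was −0.10.

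With the Xist covariate, which cannot separate sex from genotype here, the sign turned for Ccng2 (0.09), Irx3 (0.08), Dcn (0.08), Ctf1 (0.20), Smarcal1 (0.06) and Cyb5r2 (0.00). With 1 array left out the sign turned for Cyb5r2 (−0.02 and −0.20), Chac1 (range −0.18 to 0.47, with −0.01 between), Ctf1 (−0.09 to 0.05), Wnt2 (−2.85 to 0.21) and Tm7sf3 (−2.61 to 0.01).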

Other observations

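A few genes were low in knockout 2 alone. Wnt2, a secreted signaling protein, had an intensity of 628.3 and 446.5 in controls, 610.6 in knockout 1 and 73.55 in knockout 2. Tm7sf3 had 284.7, 279.5, 284.7 and 46.12 in the same order. Fgfr1op2, a neighbour of it on chromosome 6, had 1021, 898.2 and 919.9 and then 109.3 on its brightest probe, whereas another probe read 284.7, 295.0, 302.0 and 294.6. Over all autosomal genes tested, 11 were over 2-fold higher and 5 lower than the control mean in knockout 2 with knockout 1 within 0.3, against 1 and 1 the other way round.

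Of the gene lists not described above, the TCA cycle had 15 of 18 genes lower with a median of −0.08, glycolysis 12 of 16 with −0.05 and fatty acid oxidation 12 of 20 with −0.04, while 18 of 26 cell cycle genes were higher with 0.05. The mTor list had 9 of 19 higher with −0.01. Of 13 macrophage and platelet genes 9 were higher with a median of 0.19 (0.32 without control 1 and 0.00 without control 2), among them the platelet genes Gp9 (314.0 and 335.9 against 410.3 and 427.2) and Ppbp (385.5 and 434.3 against 729.7 and 421.9), whereas C1qa had −0.29. Of 16 liver and foregut genes only 6 were tested, with 5 lower and a median of −0.18 (−0.07 without knockout 1 and −0.11 without control 2). Of the immediate early genes, Egr1 had 2875 and 4325 in controls and 4370 and 6510 in knockouts. None of these genes passed the adjusted test.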
